A study of Tetranychus urticae with 24 samples.

Results

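The comparison described here set 4 RNA-seq libraries of mites sprayed with DEF against 4 libraries of mites sprayed with formulation (FORM), across every gene with enough reads. These were 8 of the 24 libraries of the series. All libraries came from pools of about 100 whole adult females of the two-spotted spider mite, Tetranychus urticae, from the laboratory strain JP-R, which withstands the acaricides cyenopyrafen and cyflumetofen. The strain was reared under 200 mg cyenopyrafen per L and then kept without it on bean for the week before collection, and this history was shared by all groups. Females 3 to 5 days old received 500 ppm DEF in a mix of N,N-dimethylformamide and emulsifier W diluted 100-fold in water (DEF), or that mix alone (FORM). Living mites were collected after 24 h at 26 °C from about 600 treated females per group, so mites that died under the spray are not in the data. The study calls the 4 libraries of a group biological replicates and does not state whether they came from separate sprayings. The statistics below may therefore measure the spread between pools of mites and not that between separate sprayings. Of the other groups, unsprayed mites (CON) give a background level and mites sprayed with 1000 ppm PBO, a P450 inhibitor, serve for a direct comparison. Further groups were sprayed with diethyl maleate (DEM), which depletes cells of glutathione, or with cyclosporin A (CsA), an inhibitor of certain vertebrate transporters. These mites entered the filter on low counts and the estimate of the spread and, for CYP392A11, a comparison of levels.

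DEF (S,S,S-tributyl phosphorotrithioate) is an organophosphate used as a synergist because it inhibits esterases. Arthropods clear foreign compounds in steps. Carboxyl/choline esterases (CCEs) and cytochrome P450 monooxygenases (P450s) hydrolyse or oxidise them, UDP-glycosyltransferases (UGTs) and glutathione S-transferases (GSTs) attach a sugar or glutathione, and membrane transporters such as ABC proteins and the major facilitator superfamily (MFS) move the products. Spider mites also carry intradiol ring-cleavage dioxygenases, enzymes that open aromatic rings and that other animals mostly lack. The gene ID of the mite gives a scaffold and a number along it: tetur03g00970 is a gene of scaffold 3.

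Total counts ran from 13824851 to 16696100 per DEF library (median 14319357) and from 14573720 to 17633311 per FORM library (median 15961778). Pairs of libraries of the same group differed by more than counting noise, with a chi-square of 4.36 to 11.6 for each degree of freedom in the DEF and FORM groups, and none was taken for a copy of another. On the first principal component of the 8 libraries (38.2% of the variance) the DEF libraries lay at 22.4, 12.3, 11.8 and 20.1 and the FORM libraries at −18.3, −19.5, −21.4 and −7.47. FORM replicate 4 therefore stood apart from the other FORM libraries, on the side of DEF. The gene with the most reads, tetur39g00810, took 4.57 to 4.78% of the counts of a DEF library and 5.21 to 5.81% of those of a FORM library.

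Among genes described in the study's tables, several for P450s, UGTs, cysteine peptidases, lipid-handling proteins and CCEs were higher with DEF than with formulation. The vasa genes and most of the neuropeptide genes listed were lower. Most of these genes had been called by the study in the same libraries. Of 12736 genes tested, 344 (2.7%) were differentially expressed at a Benjamini-Hochberg adjusted p under 0.05 and an absolute fold change (FC) of at least 1.5. Among these, 191 were upregulated (1.5% of the genes tested) and 153 downregulated (1.2%). Upregulated genes had a median FC of 1.90 and downregulated genes one of −1.69, while the median log2 FC of all genes tested was −0.0032. An FC of at least 2 was reached by 85 upregulated and 37 downregulated genes, and an FC of at least 3 by 25 and 6. The libraries of the groups did not overlap for 174 of the upregulated and 140 of the downregulated genes, and for 18.7% of all genes tested. Differentially expressed genes had fewer reads than most, with a median of 6.87 CPM (counts scaled to library size with TMM factors) among upregulated and 6.11 CPM among downregulated genes against 23.4 CPM over all genes. The count fell to 229 (123 up, 106 down) without DEF replicate 1 and was 398 (255 up, 143 down) without FORM replicate 4. A test that the absolute FC itself exceeds 1.5 kept 26 genes (19 up, 7 down). In whole mites fewer cells of a type and less RNA per cell cannot be told apart.

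**Figure D1:**
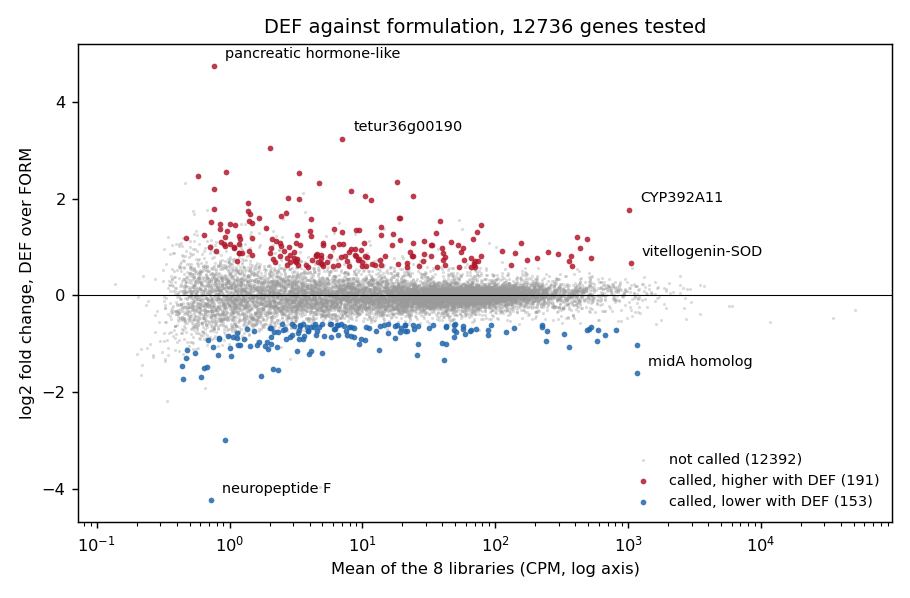
Each point is a gene, with the mean CPM of the 8 libraries on a log axis and the log2 FC of DEF over FORM; red points are the 191 upregulated and blue points the 153 downregulated genes. CYP392A11, the vitellogenin fused to superoxide dismutase and the midA homolog lie at the high end of CPM, while the largest fitted changes sit near 1 CPM.

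To describe the response by function, 23 gene lists with 203 tested members were used. Most were taken from words in the descriptions of the study's tables. The transcription factors had been listed by the study itself, and a further list is a group of neighbours on scaffold 30. The CncC and calcineurin genes and the esterase ID tetur04g06670 came from the study's text. Of the 203 tested members 118 were differentially expressed. The study had put 113 of the list genes into its DEF table because it called them in the libraries used here, and most of the others came from its tables for the other sprays, which share the FORM libraries. The counts are therefore no independent evidence of a direction, and each count below is given with the number of such members. Apart from the IDs taken from the study's text, genes of a family that those tables do not hold are outside the lists. A count is therefore no share of a whole family. Over all 12736 genes tested, 1.5% were upregulated and 1.2% downregulated. In the sentences that follow, values of single libraries are CPM in the order of replicates 1 to 4, and statistics are those of edgeR's quasi-likelihood test with adjustment over all genes tested.

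**Figure D2:**
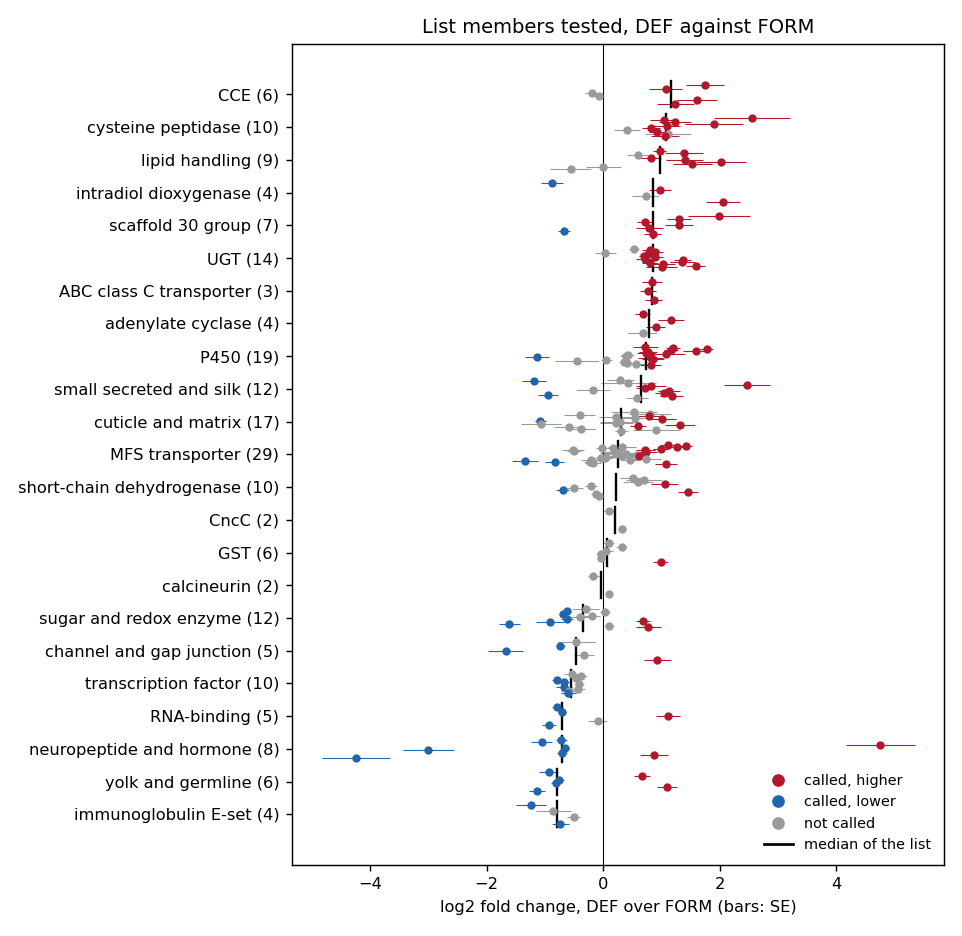
Each point is a list member with its log2 FC of DEF over FORM and its SE; red and blue points were differentially expressed, grey points were not, and black lines mark list medians. Medians ran from 1.15 for CCEs to −0.79 for the immunoglobulin E-set and yolk and germline lists.

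CCEs are the enzymes that DEF inhibits. Of 6 listed CCE genes tested, 3 of them from the study's DEF table, 4 were upregulated and 2 were not differentially expressed. Of the latter, tetur04g06670 was listed only because the study's text gives this ID for an esterase upregulated by DEF. The study's table gives that esterase as tetur04g06770. It is therefore uncertain whether tetur04g06670 is a CCE gene, and it enters the count and the median. The median log2 FC was 1.15. The gene tetur04g06770 measured 39.4, 24.6, 20.9 and 31.3 CPM with DEF and 6.61, 7.39, 7.57 and 16.97 CPM with formulation (FC 3.05, log2 FC 1.61 ± 0.34 SE, adjusted p = 0.003704). Its DEF libraries all lay above its FORM libraries, of which replicate 4 was the highest. The neighbours tetur01g10800 and tetur01g10810 reached 2.26, 1.69, 1.41 and 3.103 CPM against 0.4599, 0.692, 0.7504 and 0.629 CPM (FC 3.34, adjusted p = 0.00128) and 7.15 to 12.1 CPM against 3.87 to 5.45 CPM (FC 2.101, adjusted p = 0.0194). A further CCE on scaffold 11, tetur11g05770, lay at 26.4, 14.8, 13.2 and 22.6 CPM with DEF and at 6.09, 8.48, 5.93 and 12.4 CPM with formulation (FC 2.36, adjusted p = 0.0155), and at 10.3 ± 4.29 CPM (mean ± SD, n = 4) in unsprayed mites. The gene tetur01g10820, next in number to tetur01g10810, measured 19.96 to 20.7 CPM with DEF and 22.2 to 23.9 CPM with formulation (adjusted p = 0.427), and tetur04g06670 89.5 to 105 CPM and 95.5 to 109 CPM (adjusted p = 0.6701). The call of tetur01g10810 was lost without DEF replicates 1 or 4 or FORM replicates 2 or 3 (adjusted p up to 0.0798), and that of tetur11g05770 without DEF replicates 1 or 4 or FORM replicates 1 or 3 (adjusted p up to 0.0745). Without DEF replicate 1, DEF replicate 4 or FORM replicate 3, only 2 of the 6 CCE genes were upregulated.

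The listed P450 oxidase genes rose more often than they fell, with several members of CYP392, an expanded family of the mite, among the upregulated ones. Of 19 listed P450 genes tested, 11 of them from the study's DEF table, 11 were upregulated, 1 was downregulated and 7 were not differentially expressed (median log2 FC 0.73). CYP392A11 (tetur03g00970), an enzyme shown to metabolise cyenopyrafen in vitro, had the smallest p of all genes tested. Its level was 1675, 1596, 1543 and 1467 CPM with DEF and 420.4, 547, 388 and 483 CPM with formulation (FC 3.42, log2 FC 1.77 ± 0.11 SE, adjusted p = 9.20e-10). In the other groups it stood at 414 ± 55.7 CPM in unsprayed mites, 1758 ± 213 CPM with PBO, 354 ± 27.2 CPM with DEM and 409 ± 56.8 CPM with CsA (mean ± SD, n = 4 each). The direct test did not separate DEF from PBO (log2 difference −0.16 ± 0.11 SE, adjusted p = 0.522). CYP392A12 (tetur03g00830), on the same stretch of scaffold 3, was measured at 658, 565, 506 and 555 CPM with DEF against 226, 279.8, 221 and 269 CPM (FC 2.29, log2 FC 1.20 ± 0.12 SE, adjusted p = 1.05e-06).

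Another stretch of scaffold 3 holds the CYP392D genes. CYP392D2 (tetur03g04990) stood at 744, 677, 672 and 624 CPM with DEF and 262, 351, 294 and 306 CPM with formulation (FC 2.24, log2 FC 1.16 ± 0.11 SE, adjusted p = 9.18e-07), and its groups were well separated. CYP392D6 (tetur03g05030) measured 328, 245, 231 and 229 CPM against 155, 162, 136 and 155 CPM (FC 1.702, adjusted p = 0.00303). The probable pseudogene CYP392D5p (tetur03g05020) was at 24.1, 23.8, 24.7 and 41.5 CPM with DEF, with replicate 4 far above the others, and at 8.28, 9.06, 9.14 and 11.5 CPM with formulation (FC 3.01, adjusted p = 7.34e-05). A P450 fragment, tetur03g05040, lay at 194 to 242 CPM and 98.5 to 150.5 CPM (FC 1.66, adjusted p = 0.00447). Reads of such fragments and pseudogenes can come from near-identical copies, so their separate values are uncertain. Among further probable pseudogenes, tetur03g00800 (FC 1.65) lost its call without DEF replicates 1, 2 or 4 or FORM replicates 1, 2 or 3 (adjusted p up to 0.174). In the same way tetur03g05060 (FC 2.11) lost it without DEF replicates 1, 3 or 4 or FORM replicates 1, 2 or 3 (adjusted p up to 0.1297).

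The list also held 3 upregulated CYP385C genes. CYP385C3 (tetur11g05540) reached 5.01 to 6.88 CPM against 2.77 to 3.62 CPM (FC 1.803, adjusted p = 0.00533), its second entry CYP385C3v2 (tetur46g00170) 8.52 to 11.5 CPM against 4.33 to 6.89 CPM (FC 1.76, adjusted p = 0.00662), and CYP385C4 (tetur11g05520) 8.53 to 15.7 CPM against 6.22 to 6.84 CPM (FC 1.76, adjusted p = 0.0188). The last of these calls was lost without DEF replicate 2 (adjusted p = 0.0752) and without FORM replicate 3 (adjusted p = 0.0530). The 1 downregulated P450 gene, CYP392A3 (tetur07g06460), fell from 4.31, 4.04, 4.98 and 4.33 CPM to 1.49, 2.29, 1.97 and 2.26 CPM (FC −2.21, adjusted p = 8.49e-04). Unsprayed mites measured 3.06 ± 0.835 CPM, and with them as the control its call was lost (log2 difference −0.61, adjusted p = 0.056). Several P450 genes with many reads passed the adjusted p but not the FC threshold. CYP392E8 (tetur27g00350) lay at 3051, 2765, 2570.4 and 2729 CPM with DEF and 2061, 2129, 2051 and 2162 CPM with formulation (FC 1.32, adjusted p = 0.00468), and CYP392A16 (tetur06g04520), known to metabolise abamectin, at 1307 to 1623 CPM and 1040.2 to 1255 CPM (FC 1.31, adjusted p = 0.0246). CYP392B3 (tetur20g00290) had an FC of 1.04 (adjusted p = 0.784). No P450 gene of the list differed by the same thresholds between DEF and PBO.

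The listed UGT genes were mostly upregulated. Of 14 listed UGT genes tested, 12 were upregulated, all 12 from the study's DEF table, and none was downregulated (median log2 FC 0.85). UGT11 (tetur02g09850) measured 372, 305, 315 and 308 CPM with DEF and 168, 168, 163 and 204 CPM with formulation (FC 1.85, log2 FC 0.89 ± 0.14 SE, adjusted p = 2.20e-04). Replicate 1 was the highest DEF library and replicate 4 the highest FORM library, and the groups did not overlap. UGT52 (tetur11g01830) lay at 186, 173, 221 and 156 CPM against 116, 84.1, 99.8 and 98.9 CPM (FC 1.85, adjusted p = 3.36e-04) and was also higher with DEF than with PBO, where it averaged 118 ± 26.98 CPM (log2 difference 0.64 ± 0.14 SE, adjusted p = 0.0262). UGT10 (tetur02g09830), UGT18 (tetur04g07770) and UGT31 (tetur05g05710) had FCs of 1.75, 1.701 and 1.63.

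A run of UGT genes on scaffold 22 rose together. UGT68 (tetur22g00480) had the largest FC of the list, with 5.78, 6.41, 7.12 and 5.501 CPM in the DEF and 2.76, 1.85, 1.77 and 1.82 CPM in the FORM libraries (FC 2.998, log2 FC 1.58 ± 0.17 SE, adjusted p = 2.11e-06). UGT63 (tetur22g00360) stood at 11.8 to 13.8 CPM against 4.04 to 6.14 CPM (FC 2.57, adjusted p = 3.30e-06), and UGT65 (tetur22g00420) at 11.001 to 17.99 CPM against 3.55 to 7.704 CPM (FC 2.56, adjusted p = 2.31e-04). UGT66, UGT67 and UGT69 had FCs of 1.75, 2.05 and 2.005. The call of UGT69 (tetur22g00510) was lost without DEF replicate 1 (adjusted p = 0.0706) and without FORM replicate 4 (adjusted p = 0.0546). Among the remaining UGTs, UGT09 (tetur02g03300) passed the adjusted p alone (FC 1.45, adjusted p = 2.31e-04), and UGT16 (tetur04g07630) had an FC of 1.03 (adjusted p = 0.923).

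Among the 6 listed GST genes tested, 1 was upregulated and 5 were not differentially expressed (median log2 FC 0.07). The delta-class gene tetur29g00220, which was the only member from the study's DEF table, measured 88.9, 68.8, 72.2 and 72.99 CPM with DEF and 33.9, 40.9, 38.9 and 39.7 CPM with formulation (FC 1.98, log2 FC 0.98 ± 0.13 SE, adjusted p = 3.15e-05). The delta-class genes tetur26g01490 and tetur26g01450 lay at 384 to 429 CPM against 393 to 435 CPM (adjusted p = 0.796) and at 201 to 225 CPM against 208 to 229.7 CPM (adjusted p = 0.868). The mu-class gene tetur05g05190 stood at 110.02, 106, 103 and 108 CPM against 100.2, 105, 98.03 and 110.3 CPM (adjusted p = 0.856). With PBO it averaged 175 ± 1.55 CPM, and DEF was lower than PBO by the same thresholds (log2 difference −0.71 ± 0.12 SE, adjusted p = 0.00396). Of the genes that control such enzymes, the ortholog genes of CncC, a transcription factor that switches on detoxification genes in insects, were not differentially expressed. The ortholog tetur07g06850 lay at 91.6, 81.5, 83.9 and 90.3 CPM against 74.7, 72.4, 63.8 and 66.6 CPM, a separation with a small FC (FC 1.25, adjusted p = 0.00452), and tetur07g04600 at 9.65 to 11.7 CPM against 8.39 to 10.7 CPM (adjusted p = 0.582). The 2 calcineurin subunit genes tested had FCs of 1.07 (tetur04g07540, adjusted p = 0.3101) and −1.13 (tetur03g06410, adjusted p = 0.292).

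All 3 class C ABC transporter genes of the list were upregulated, and all 3 came from the study's DEF table. The class includes pumps that export conjugated compounds. The gene tetur28g01950 stood at 44.1, 34.9, 31.3 and 38.7 CPM with DEF and 24.95, 19.4, 19.3 and 18.2 CPM with formulation (FC 1.82, adjusted p = 3.02e-04), with 27.6 ± 6.09 CPM in unsprayed mites, between the means of both groups. The neighbours tetur14g02300 and tetur14g02320 had FCs of 1.78 and 1.695.

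MFS genes code for carriers of sugars, anions and other small solutes. Of 29 listed MFS genes tested, 8 were upregulated, 2 downregulated and 19 not differentially expressed (median log2 FC 0.26), and 8 came from the study's DEF table. The adjacent tetur01g06570, tetur01g06580 and tetur01g06600 were all upregulated. Of these tetur01g06580 measured 22.2, 18.6, 20.9 and 19.3 CPM with DEF and 6.96, 7.098, 8.32 and 7.96 CPM with formulation (FC 2.68, log2 FC 1.42 ± 0.10 SE, adjusted p = 6.94e-09), a gap far wider than the spread within groups. Its neighbour tetur01g06570, described as a sodium-dependent glucose transporter, lay at 53.1 to 82.01 CPM against 28.3 to 30.7 CPM (FC 2.16, adjusted p = 1.30e-05), and tetur01g06600 at 16.4 to 32.3 CPM against 8.77 to 12.3 CPM (FC 2.396, adjusted p = 5.87e-06). The general substrate transporter tetur40g00030 reached 40.03, 31.5, 28.4 and 29.3 CPM against 11.04, 15.9, 15.3 and 19.3 CPM (FC 2.11, adjusted p = 9.18e-04), and the putative sialin gene tetur02g09080 48.2 to 60.4 CPM against 25.8 to 27.5 CPM (FC 1.98, adjusted p = 2.57e-05). In the other direction tetur13g03400 fell to 22.5, 22.3, 25.3 and 23.3 CPM from 88.7, 51.8, 42.02 and 53.8 CPM (FC −2.53, adjusted p = 2.59e-04), with FORM replicate 1 the highest, and the sugar transporter gene tetur17g01290 to 5.06 to 6.35 CPM from 9.54 to 11.7 CPM (FC −1.78, adjusted p = 0.00191). The call of tetur05g04460 (FC 1.67) was lost without DEF replicate 1 or FORM replicates 2 or 3 (adjusted p up to 0.0638). The FC of tetur08g06360 (1.53) was just above the threshold, and without DEF replicate 4 it came to lie under it at an adjusted p of 0.00654.

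Ring-cleaving and reducing enzymes changed in both directions. Of 4 intradiol dioxygenase genes, all from the study's DEF table, 2 were upregulated and 1 downregulated. The gene tetur28g01250 measured 48.1, 35.1, 26.7 and 44.01 CPM with DEF and 7.704, 9.81, 7.44 and 12.2 CPM with formulation (FC 4.16, log2 FC 2.06 ± 0.30 SE, adjusted p = 7.63e-05), and tetur13g04550 measured 662, 566, 499.6 and 579 CPM against 244, 275, 294 and 359 CPM (FC 1.97, adjusted p = 0.00162). The third, tetur12g04671, fell, with 10.8 to 13.9 CPM against 18.99 to 29.7 CPM (FC −1.85, adjusted p = 0.00346). Of 10 short-chain dehydrogenase genes, 3 of them from the study's DEF table, 2 were upregulated and 1 downregulated. The reductase gene tetur28g01140 rose to 131, 113, 97.03 and 115 CPM from 54.2, 37.97, 35.1 and 39.4 CPM (FC 2.74, log2 FC 1.45 ± 0.17 SE, adjusted p = 6.17e-06), again with no overlap. The reductase gene tetur06g05110, which bears the same description, fell, with 46.5 to 59.9 CPM against 84.9 to 92.3 CPM (FC −1.62, adjusted p = 3.02e-04).

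**Figure D3:**
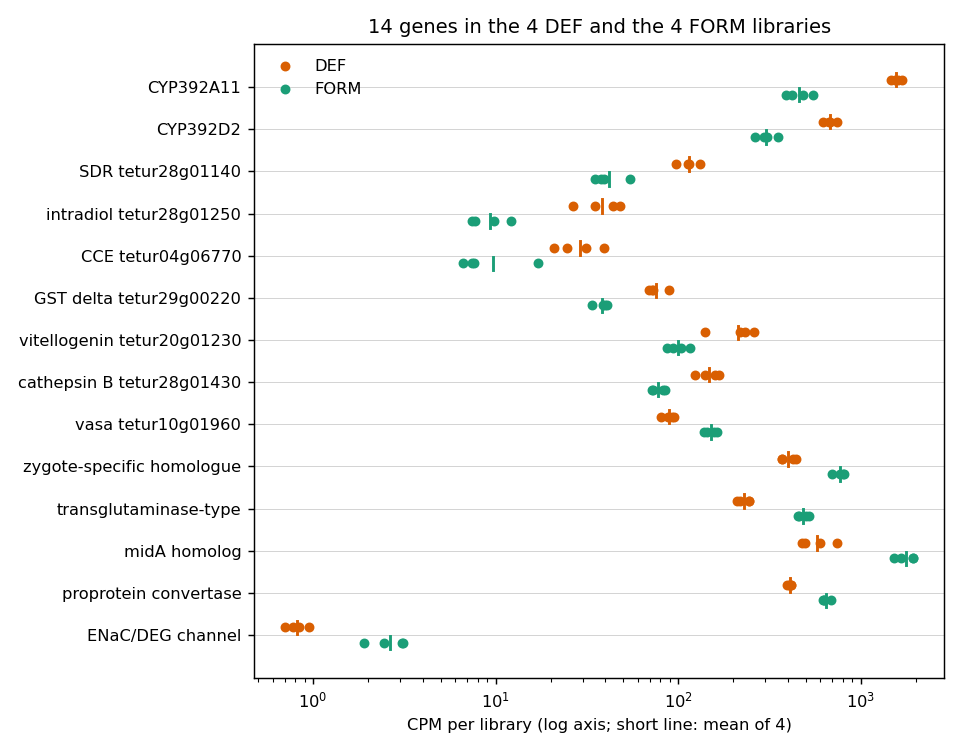
CPM of 14 genes in each of the 4 DEF and 4 FORM libraries on a log axis, with short lines at the means. For every gene shown the DEF and the FORM libraries are fully separated, from CYP392A11 at 1467 CPM or more with DEF down to the ENaC/DEG channel gene below 1 CPM with DEF. The genes were chosen by hand, and not all differentially expressed genes separate in this way.

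Most of the protease genes listed were upregulated. Cathepsins and legumains are cysteine peptidases that digest protein, in mites also in the gut. Of 10 cysteine peptidase genes, 8 of them from the study's DEF table, 8 were upregulated and none was downregulated (median log2 FC 1.07). The cathepsin B gene with the most reads, tetur28g01430, measured 159.99, 139.5, 123 and 167 CPM with DEF and 72.2, 82.5, 72.6 and 84.3 CPM with formulation (FC 1.895, log2 FC 0.92 ± 0.13 SE, adjusted p = 5.77e-05). The cathepsin L gene tetur02g14540 lay at 23.2, 19.9, 25.2 and 21.5 CPM against 9.72, 9.29, 10.03 and 14.7 CPM (FC 2.06, adjusted p = 0.00603), with FORM replicate 4 the highest of its group. The legumain gene tetur16g03670 reached 20.8, 11.1, 9.66 and 14.5 CPM against 7.19, 6.64, 5.73 and 6.91 CPM (FC 2.12, adjusted p = 0.00458). The cathepsin B gene tetur55g00130 and the cathepsin L gene tetur16g03680 had FCs of 2.08 and 1.76. In tetur06g03520 the groups overlapped, at 3.81 to 7.12 CPM and 1.55 to 3.84 CPM (FC 2.34, adjusted p = 0.00603). The low-count gene tetur01g05230 (FC 5.88) lost its call without DEF replicate 1 or FORM replicates 1 or 2 (adjusted p up to 0.0659), and tetur09g04470 (FC 3.75) without DEF replicate 1 or FORM replicates 1 or 3 (adjusted p up to 0.0723).

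Among 9 genes for handling lipids, 6 of them from the study's DEF table, 6 were upregulated and 3 not differentially expressed (median log2 FC 0.97). The gene tetur11g05740, with a lipase/lipoxygenase PLAT domain, stood at 72.1, 47.1, 44.8 and 63.3 CPM with DEF and 14.6, 23.5, 14.8 and 25.9 CPM with formulation (FC 2.89, log2 FC 1.53 ± 0.34 SE, adjusted p = 0.00555). The fatty acid synthase gene tetur04g02370 lay at 10.7, 9.72, 9.87 and 13.1 CPM against 5.06, 5.37, 5.32 and 6.495 CPM (FC 1.96, adjusted p = 7.17e-06), with tight replicates in both groups. Fatty acid synthase builds long-chain fatty acids. The lipoprotein gene tetur10g04150 measured 6.61, 3.78, 3.17 and 3.95 CPM against 0.9198, 0.404, 0.887 and 2.23 CPM (FC 4.05, adjusted p = 0.00403), the apolipoprotein D precursor gene tetur04g06010 6.88 to 10.8 CPM against 1.904 to 5.31 CPM (FC 2.603, adjusted p = 0.008401), and the lipase gene tetur10g00740 1.83 to 3.17 CPM against 0.7504 to 1.47 CPM (FC 2.63, adjusted p = 0.00622).

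Yolk and germline genes moved in opposite directions. All 6 members came from the study's DEF table, with 2 upregulated and 4 downregulated (median log2 FC −0.79). Vitellogenins are the yolk precursors. The vitellogenin gene tetur20g01230 measured 233, 140.001, 219.5 and 261 CPM with DEF and 103, 94.2, 87.4 and 116 CPM with formulation (FC 2.13, log2 FC 1.09 ± 0.17 SE, adjusted p = 1.63e-04), and a vitellogenin fused to superoxide dismutase, tetur07g05480, 1414, 1184, 1089.8 and 1473 CPM against 931, 747, 739.9 and 837 CPM (FC 1.59, adjusted p = 0.00452). The vasa genes, which code for a germline RNA helicase, fell. The vasa gene tetur10g01960 was at 80.5, 88.3, 95.1 and 92.9 CPM with DEF and 164, 143, 139 and 157 CPM with formulation (FC −1.69, log2 FC −0.76 ± 0.0847 SE, adjusted p = 3.37e-06), and its near neighbour tetur10g01980 at 60.9, 60.7, 68.7 and 63.5 CPM and 115, 112, 113 and 108 CPM (FC −1.76, adjusted p = 6.85e-07). Both carry the same description, and reads shared between them were not resolved here. A homologue of a conserved zygote-specific protein, tetur01g11850, measured 371, 439.8, 424 and 373 CPM against 775, 696, 799 and 807 CPM (FC −1.91, adjusted p = 4.25e-04). The cutoff-like gene tetur21g03230, named after a Drosophila protein of the germline piRNA pathway, lay at 7.48 to 9.73 CPM against 15.9 to 20.8 CPM (FC −2.19, adjusted p = 1.06e-05). As the list moved in both directions, the part of egg content in the other results was not tested.

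The listed neuropeptide and hormone genes were mostly lower with DEF. Of 8 members, all from the study's DEF table, 6 were downregulated and 2 upregulated (median log2 FC −0.72). The proprotein convertase gene tetur07g00820, whose product cuts peptide precursors into active peptides, measured 396, 415, 405 and 417 CPM with DEF and 628, 625, 627 and 689 CPM with formulation (FC −1.57, log2 FC −0.65 ± 0.0706 SE, adjusted p = 2.36e-06). The neuropeptide precursor genes tetur10g02210 and tetur03g08630 lay at 44.4, 50.5, 52.9 and 52.8 CPM against 76.002, 76.8, 88.1 and 87.7 CPM (FC −1.64, adjusted p = 6.17e-06) and at 32.6 to 43.4 CPM against 56.8 to 64.7 CPM (FC −1.64, adjusted p = 1.70e-05). An insulin-like gene, tetur04g08550, fell, with 0.953 to 1.48 CPM against 2.37 to 2.72 CPM (FC −2.08, adjusted p = 6.72e-04). The largest fitted changes of the comparison were in genes with very few reads. The neuropeptide F precursor gene tetur26g01200 had 3, 0, 0 and 1 counts with DEF and 27, 31, 19 and 13 counts with formulation. Its rate was 21.2-fold higher with formulation (95% exact interval 7.99 to 79.4, adjusted p = 4.49e-05). The precursor gene tetur10g02190 had 0, 2, 5 and 5 counts against 31, 39, 20 and 17, a rate 8.39-fold higher with formulation (4.61 to 16.8, adjusted p = 7.86e-05). The pancreatic hormone-like gene tetur04g09491 went the other way, with 21, 12, 21 and 34 counts with DEF against 0, 1, 1 and 1 (31.2-fold higher with DEF, 10.3 to 154, adjusted p = 1.21e-05). These intervals cover counting error only. The call of the neuropeptide receptor gene tetur13g02680 (FC 1.83) was lost without DEF replicates 1 or 4 or FORM replicates 1, 2 or 3 (adjusted p up to 0.0751), which left 1 upregulated gene in the list.

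The listed secreted protein genes were raised more often than lowered. Of 12 small secreted and silk genes, 8 of them from the study's DEF table, 6 were upregulated and 2 downregulated (median log2 FC 0.65). The putative salivary peptide genes tetur23g01600 and tetur05g04720 measured 97.1, 78.9, 77.1 and 126 CPM against 40.1, 39.9, 38.2 and 50.5 CPM (FC 2.25, adjusted p = 4.25e-04) and 39.7, 35.5, 31.7 and 52.3 CPM against 21.1, 14.9, 16.5 and 20.5 CPM (FC 2.18, adjusted p = 4.79e-04). Saliva proteins of spider mites enter the host leaf. The family B secreted protein gene tetur03g08810 lay at 377 to 515 CPM against 224 to 301 CPM (FC 1.64, adjusted p = 0.00256). The call of its neighbour tetur03g08800 (FC 1.77) was lost without DEF replicates 1, 2 or 4 or FORM replicates 1, 2 or 3 (adjusted p up to 0.132). The orphan secreted gene tetur13g00990, described as a possible fibroin, stood at 73.98, 78.9, 50.1 and 79.5 CPM with DEF and 31.7, 36.6, 39.2 and 29.3 CPM with formulation (FC 2.07, adjusted p = 9.59e-05). Unsprayed mites measured 63.8 ± 12.0002 CPM for this gene, so DEF lay apart from formulation but its call was lost with unsprayed mites as the control. The secreted protein gene tetur15g01980 fell, with 152 to 185 CPM against 257 to 361 CPM (FC −1.92, adjusted p = 0.00122), and its unsprayed level of 214 ± 56.6 CPM lay between the group means. The orphan gene tetur02g03070 fell, with 2.26 to 3.596 CPM against 6.22 to 7.98 CPM (FC −2.27, adjusted p = 5.90e-04).

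Of 17 cuticle and matrix genes, 5 of them from the study's DEF table, 4 were upregulated, 1 was downregulated and 12 were not differentially expressed. The transglutaminase-type gene tetur09g05660, whose enzyme class crosslinks proteins, measured 211, 243, 245 and 218 CPM with DEF and 459.5, 453, 499.95 and 522 CPM with formulation (FC −2.11, log2 FC −1.08 ± 0.0933 SE, adjusted p = 1.40e-07). The MAM domain gene tetur17g02830 rose to 13.2, 8.704, 7.404 and 10.7 CPM from 2.47, 4.62, 3.48 and 5.66 CPM (FC 2.49, adjusted p = 0.00203), and the spondin precursor gene tetur05g06950 to 6.21 to 9.803 CPM from 2.87 to 5.52 CPM (FC 2.01, adjusted p = 0.00747). The call of dopa decarboxylase (tetur22g00750, FC 1.51), an enzyme of cuticle tanning, lay at the FC threshold and was lost without DEF replicate 1 (adjusted p = 0.0408) or FORM replicate 1 (adjusted p = 0.0407), where the FC was under 1.5. The call of tetur03g04460 (FC 1.72) was lost without DEF replicates 1 or 4 or FORM replicates 1, 2 or 3 (adjusted p up to 0.109). The list held 2 upregulated genes without DEF replicate 1 or FORM replicate 1, and 2 downregulated genes without DEF replicate 4.

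Genes for channels, signalling and energy metabolism gave both directions. The ENaC/DEG sodium channel gene tetur09g00460 lay at 0.834, 0.945, 0.705 and 0.776 CPM with DEF and 3.104, 1.904, 3.07 and 2.44 CPM with formulation (FC −3.195, log2 FC −1.68 ± 0.30 SE, adjusted p = 9.49e-04). The innexin gene tetur08g07510, coding for a gap junction protein, fell, with 45.7 to 49.9 CPM against 73.96 to 89.7 CPM (FC −1.67, adjusted p = 1.20e-06), while the innexin gene tetur35g00650 rose, with 10.2 to 14.95 CPM against 5.18 to 9.01 CPM (FC 1.91, adjusted p = 0.0106). These were the 3 differentially expressed genes of a list of 5, all of them from the study's DEF table. Of 4 adenylate cyclase genes, whose enzymes make cyclic AMP, 3 were upregulated and all 3 came from the study's DEF table, with FCs of 2.24 (tetur11g05110), 1.87 (tetur16g03200) and 1.597 (tetur11g05100). Among 12 sugar and redox enzyme genes, 6 of them from the study's DEF table, 2 were upregulated and 5 downregulated (median log2 FC −0.36). The homolog of midA, a mitochondrial protein needed for complex I in Dictyostelium, had the largest fall among the 20 differentially expressed genes with the most reads. This gene, tetur09g06670, measured 494, 600.5, 740.3 and 475 CPM with DEF and 1935, 1520.3, 1671 and 1936 CPM with formulation (FC −3.06, log2 FC −1.61 ± 0.18 SE, adjusted p = 3.30e-06). Unsprayed mites averaged 1418 ± 301 CPM and mites with PBO 706 ± 185 CPM. The copper/zinc superoxide dismutase gene tetur02g11180, an antioxidant enzyme, fell, with 165 to 195 CPM against 259 to 284 CPM (FC −1.53, adjusted p = 2.93e-06), and without DEF replicate 1 its FC lay under 1.5 at an adjusted p of 3.88e-05. The glucose dehydrogenase gene tetur03g09330 fell, with 95.2 to 117 CPM against 161 to 185 CPM (FC −1.61, adjusted p = 6.04e-06), and the acid alpha-glucosidase gene tetur06g02700 rose, with 75.6 to 92.9 CPM against 46.8 to 62.3 CPM (FC 1.599, adjusted p = 8.66e-04). The call of tetur08g02870 (FC −1.88) was lost without DEF replicate 1 (adjusted p = 0.0501). That of the glycoside hydrolase gene tetur72g00020 (FC 1.71) was lost without DEF replicates 1 or 4 or FORM replicates 1, 2 or 3 (adjusted p up to 0.102), which left 1 upregulated gene in the list. Without DEF replicate 1 the list held 3 downregulated genes.

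Among the regulators listed, several genes for transcription factors and RNA-binding proteins were downregulated. The study had picked its 10 transcription factor genes by their fold changes with DEF and PBO in these libraries, so their direction was part of the choice and carries no evidence. Of these 10, 2 of them also from the study's DEF table, 4 were downregulated and 6 not differentially expressed. The glass gene tetur07g01570, named after a Drosophila factor of photoreceptor development, lay at 12.9, 16.9, 15.2 and 14.8 CPM with DEF and 26.6, 21.4, 25.8 and 21.8 CPM with formulation (FC −1.602, adjusted p = 6.99e-05). The basic helix-loop-helix gene tetur08g07600 fell, with 6.14 to 7.03 CPM against 9.43 to 11.5 CPM (FC −1.598, adjusted p = 0.00224). For tetur25g00460 (FC −1.52) the FC fell under 1.5 without DEF replicates 1 or 2 or FORM replicates 1 or 2, with adjusted p up to 0.0232. Of 5 RNA-binding genes, 4 of them from the study's DEF table, 3 were downregulated and 1 upregulated. Among the 3, tetur06g03930 (FC −1.73) is also 1 of the 10 transcription factor genes, so its direction too was part of that choice. The gene tetur06g05570 measured 43.2, 43.05, 44.003 and 42.7 CPM against 72.6, 68.6, 68.1 and 72.2 CPM (FC −1.63, adjusted p = 6.85e-07), and tetur28g00340 6.25 to 7.97 CPM against 12.01 to 15.3 CPM (FC −1.903, adjusted p = 2.57e-05). The upregulated member was tetur07g00310 (FC 2.17). Of 4 genes with an immunoglobulin E-set domain, 3 came from the study's DEF table and 2 were downregulated. The gene tetur01g02650 lay at 13.5, 14.5, 14.5 and 18.5 CPM with DEF and 31.7, 33.01, 31.6 and 47.4 CPM with formulation (FC −2.36, adjusted p = 0.00307), with FORM replicate 4 the highest. Its unsprayed level of 18.4 ± 6.45 CPM was near that with DEF.

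Several of the highest changes belong to genes whose descriptions name no role, and what is known of their homologs was not looked up. The gene tetur36g00190, described only by its likeness to the Drosophila gene CG18549, measured 13.04, 8.77, 20.2 and 9.17 CPM with DEF and 2.64, 0.577, 0.546 and 1.54 CPM with formulation (FC 9.49, log2 FC 3.25 ± 0.44 SE, adjusted p = 3.66e-05). The hypothetical protein genes tetur11g05020 and tetur11g05010, next to each other on scaffold 11, lay at 32.8, 39.1, 24.7 and 24.8 CPM against 5.23, 5.19, 5.05 and 8.66 CPM (FC 5.06, adjusted p = 1.34e-06) and at 21.2, 22.5, 15.2 and 14.9 CPM against 4.197, 3.75, 4.78 and 6.08 CPM (FC 3.95, adjusted p = 3.70e-06). Neither pair of groups overlapped, which was a condition of the rule by which these genes were named. The gene tetur11g90914 reached 4.71, 2.56, 1.83 and 5.22 CPM against 0.287, 0.231, 0.341 and 0.908 CPM (FC 8.28, adjusted p = 0.00101), and a BigA-like gene, tetur07g00630, 14.8 to 19.5 CPM against 2.25 to 7.68 CPM (FC 4.15, adjusted p = 0.00318). The secreted orphan gene tetur02g07960 had 13, 17, 18 and 11 counts with DEF and 5, 1, 3 and 2 with formulation (5.697-fold, 95% exact interval 2.96 to 12.03, adjusted p = 2.53e-04), and DESeq2 gave no adjusted p for it. Among lowered genes whose descriptions name no role, tetur02g04810 lay at 1.13, 1.62, 1.06 and 0.917 CPM with DEF against 3.45, 3.46, 4.09 and 2.93 CPM (FC −2.93, adjusted p = 9.13e-05), and tetur27g00790, described as Pry3p, at 2.26, 2.97, 2.398 and 1.904 CPM against 6.496, 4.56, 5.73 and 5.24 CPM (FC −2.31, adjusted p = 1.35e-04). The call of tetur16g01680 (FC 5.801) was lost without DEF replicate 4 or FORM replicates 1 or 3 (adjusted p up to 0.1097), that of tetur17g03440 (FC 4.996) without DEF replicates 1 or 4 or FORM replicates 1, 2 or 3 (adjusted p up to 0.0736). The antigen B-type gene tetur02g13040 (FC 3.21) lost its call without DEF replicates 1, 3 or 4 or FORM replicates 1, 2 or 3 (adjusted p up to 0.150000). Of the 344 differentially expressed genes, 160 (84 up, 76 down) had no description here. Descriptions were read from the study's tables, which do not hold these 160 genes, so the count does not show that they are uncharacterised.

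By read count, the 20 differentially expressed genes with the most reads comprised 9 upregulated and 11 downregulated genes, and 7 of the latter code for hypothetical proteins. The adjacent tetur25g00520 and tetur25g00510 lay at 655, 801, 874 and 721 CPM with DEF against 1433, 1466, 1774 and 1582 CPM with formulation (FC −2.05, log2 FC −1.04 ± 0.13 SE, adjusted p = 1.35e-05) and at 400.3 to 491 CPM against 678 to 812 CPM (FC −1.65, adjusted p = 3.63e-06). On the same scaffold, tetur25g01900 measured 538 to 668 CPM against 936 to 1098 CPM (FC −1.64, adjusted p = 4.83e-06). The gene tetur05g01470 stood at 407 to 562 CPM against 779 to 973 CPM (FC −1.76, adjusted p = 3.56e-05), and tetur02g02180 at 317 to 458 CPM against 593 to 652 CPM (FC −1.63, adjusted p = 1.27e-05). In none of these did a DEF library reach the lowest FORM library. The gene with the most reads of all, tetur39g00810, was not differentially expressed (FC −1.23, adjusted p = 0.301). The next in read count, tetur03g09300, was not either (FC −1.38, adjusted p = 0.102).

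Differentially expressed genes often lay near each other in gene order. Within 5 tested genes on the same scaffold, 123 of the 344 (35.8%) had another differentially expressed gene, against 20.8% of all genes tested. Of the 191 upregulated genes 68 (35.6%) had an upregulated neighbour, against 11.4% of all genes tested, and of the 153 downregulated genes 30 (19.6%) had a downregulated one, against 10.5%. No test was made of these shares. Runs of 3 or more were found 10 times for upregulated and 2 times for downregulated genes. The run with the most genes was the UGT stretch of scaffold 22, with 7 of 8 tested genes from tetur22g00360 to tetur22g00510 upregulated. Its member tetur22g00380, which the study's tables do not hold and which so has no description here, averaged 4.56 ± 0.575 CPM against 1.89 ± 1.36 CPM (FC 2.37, adjusted p = 0.0125). The CYP392A stretch held 4 of 5 and the CYP392D stretch 5 of 7 upregulated genes. On scaffold 30, 6 of 13 tested genes from tetur30g01750 to tetur30g01880 were upregulated, none with a role named in its description. The list for this stretch held 7 genes, all of them from the study's DEF table. The gene tetur30g01790 lay at 104, 94.999, 92.4 and 120.2 CPM with DEF and 35.99, 40.8, 43.9 and 45.95 CPM with formulation (FC 2.47, adjusted p = 2.43e-04), tetur30g01810 at 47.3 to 57.7 CPM and 17.4 to 22.97 CPM (FC 2.46, adjusted p = 8.88e-04), and tetur30g01880 at 327 to 437 CPM and 173 to 242 CPM (FC 1.799, adjusted p = 8.18e-04). In the same stretch tetur30g01870 was downregulated, at 22.8 to 26.4 CPM against 35.3 to 42.1 CPM (FC −1.599, adjusted p = 8.49e-05). The call of tetur30g01750 was lost without FORM replicates 1, 2 or 3 (adjusted p up to 0.0686), and that of tetur30g01860 without DEF replicates 1, 3 or 4 or FORM replicates 2, 3 or 4 (adjusted p up to 0.0886). Neighbouring genes of a family are often copies of each other. Reads that map to several of them are dropped by default in counting, so their separate values are uncertain.

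**Figure D4:**
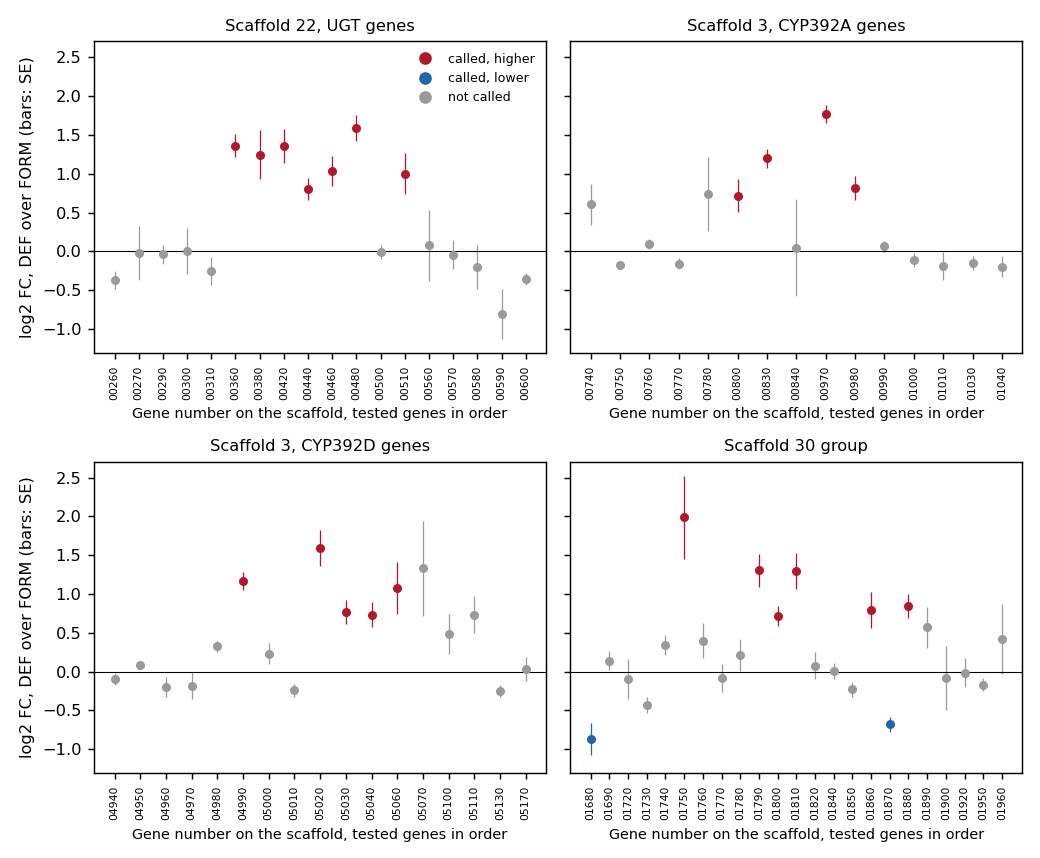
Tested genes in order along 4 stretches, with 5 genes on each side, by log2 FC of DEF over FORM and SE; red points were upregulated, blue downregulated and grey neither. The genes flanking the scaffold 22 UGT run lie near or below 0 while the 7 upregulated genes of the run lie between 0.81 and 1.58.

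To see where the response to DEF differs from that to the P450 inhibitor PBO, both groups were compared directly. The doses and the inhibited enzymes differ, so this is a comparison of these sprays and not of compounds at a matched dose. DEF and PBO differed in 44 of 12736 genes (0.345%), with 18 higher and 26 lower with DEF, while 1976 genes had an unadjusted p under 0.05. Of the 344 genes that differed between DEF and FORM, 18 also differed between DEF and PBO. Among these, 8 were higher with DEF than with either FORM or PBO and 10 were lower than with either. Both comparisons use the same DEF libraries. The largest gap was in tetur36g00190, at 8.77 to 20.2 CPM with DEF and 3.36 ± 2.66 CPM with PBO (log2 difference 1.93 ± 0.39 SE, adjusted p = 0.0146). The MFS genes tetur01g06570, with 34.8 ± 7.39 CPM (log2 difference 0.88 ± 0.14 SE, adjusted p = 0.00272), and tetur01g06580, with 12.7 ± 1.76 CPM with PBO (log2 difference 0.67 ± 0.10 SE, adjusted p = 0.00253), were higher with DEF. So were the sialin gene tetur02g09080, at 32.9 ± 6.599 CPM with PBO (log2 difference 0.67 ± 0.13 SE, adjusted p = 0.0107), and UGT52. A myostatin-described gene, tetur05g04360, averaged 44.3 ± 2.87 CPM with DEF, 21.5 ± 1.65 CPM with formulation and 26.8 ± 4.01 CPM with PBO (log2 difference 0.73 ± 0.12 SE, adjusted p = 0.00477). On the lower side tetur01g02650, of the immunoglobulin E-set, averaged 34.3 ± 7.48 CPM with PBO (log2 difference −1.17 ± 0.26 SE, adjusted p = 0.0215), and Pry3p-described tetur27g00790 5.39 ± 0.5002 CPM (log2 difference −1.17 ± 0.18 SE, adjusted p = 0.00272). The number of genes differing between DEF and PBO moved when single libraries were left out. It was 16 without DEF replicate 3, 20 without PBO replicate 1, 24 without DEF replicate 4, 25 without DEF replicate 1, 26 without PBO replicate 3 and 29 without PBO replicate 2. It stayed nearer to 44 without PBO replicate 4 (35) and without DEF replicate 2 (46).

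**Figure D5:**
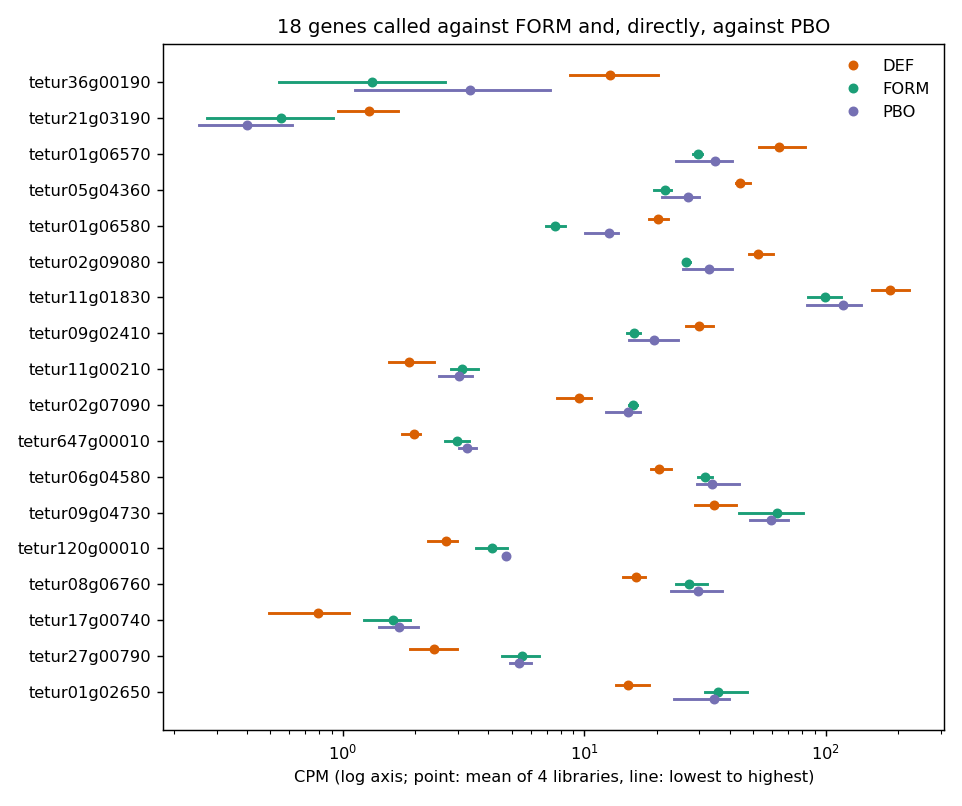
The 18 genes that differed from both FORM and PBO, by CPM on a log axis, with a point at the mean and a line from the lowest to the highest of 4 libraries in each group. The 8 genes at the top are higher and the 10 below are lower with DEF than with either of the other sprays, and tetur36g00190 shows the widest gap.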

How the data were processed

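RNA was extracted from pools of whole mites, selected on its polyA tail and sequenced as strand-specific paired reads. Per the submitters' processing notes and the methods of the study, the authors ran FastQC 0.11.4 for read quality, STAR 2.5.0a for alignment, SAMtools 0.1.19 for sorting and HTSeq 0.6.0 for strand-aware counting over annotated exons. The deposited values are these raw counts of reads for 19087 genes in 24 libraries, of which 1831 genes had no count in any library. HTSeq by default drops reads that map to several places, which can lower the counts of genes with close copies.

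Tests were run in R 4.3.3 with edgeR 4.0.16, and alternatives with limma 3.58.1 and with DESeq2 1.42.0. Genes were filtered with filterByExpr on the 6 groups (12736 kept), scaled by TMM and fitted with a quasi-likelihood model of 1 mean per group over all 24 libraries, from which DEF was contrasted with FORM and with PBO. The biological coefficient of variation was 9.80%. P-values were adjusted by Benjamini-Hochberg over all genes tested, and calls required this value to be under 0.05 with an absolute FC of 1.5 or more. FC was not shrunken, SE was computed from the F statistic, and CPM and the principal components used TMM-scaled library sizes, the latter on log2 CPM with a prior count of 2. Ratios of genes with few counts used an exact binomial interval. The analysis was tested on simulated data with 200 changed genes.

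Members and lists were chosen with earlier results of these data known. Named genes were, by rule, the 15 highest and 15 lowest log2 FC among called genes whose groups did not overlap and whose mean was at least 1 CPM, every called list member, and all CncC, CCE and GST members. The genes tetur39g00810, tetur27g00350, tetur06g04520, tetur20g00290, tetur02g03300, tetur04g07630, tetur22g00380, tetur05g04360, tetur03g09300, the 5 hypothetical protein genes described for their read counts and the calcineurin genes fall outside the rule and were picked with their values in view. The alternatives tried were another test (DESeq2, with and without a normal prior, and limma-voom), a robust dispersion, DESeq2 size factors, other filters, only the 8 libraries, the replicate number as a block, other thresholds, other controls and each library left out. The columns of the table are counts only, and sequences of the genes are not given here.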

Additional observations from a re-analysis of the deposited data

Results flagged for a closer look

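In 22 of 284 groups of 4 libraries, over 142 named genes in the DEF and FORM groups, a library lay far from the others by Dixon's criterion. Chance flags about 5% of groups. Of these libraries 10 were FORM replicate 4, 5 were DEF replicate 4, 3 were FORM replicate 3, and DEF replicate 1 and FORM replicate 1 had 2 each. FORM replicate 4 stood apart, as the highest of its group, in tetur01g02650 (47.4 CPM against 31.6 to 33.01 CPM), tetur02g09850 (204 CPM against 163 to 168 CPM), tetur02g14540 (14.7 CPM against 9.29 to 10.03 CPM), tetur04g06770 (16.97 CPM against 6.61 to 7.57 CPM), tetur07g00820 (689 CPM against 625 to 628 CPM), tetur11g05020 (8.66 CPM against 5.05 to 5.23 CPM), tetur11g90914 (0.908 CPM against 0.231 to 0.341 CPM), tetur23g01600 (50.5 CPM against 38.2 to 40.1 CPM), tetur30g01750 (2.305 CPM against 0.955 to 1.15 CPM) and tetur72g00020 (4.61 CPM against 3.16 to 3.405 CPM). DEF replicate 4 was far above the other DEF libraries in tetur03g05020 (41.5 CPM against 23.8 to 24.7 CPM), tetur09g00370 (25.3 CPM against 16.3 to 17.8 CPM), tetur16g01680 (12.5 CPM against 2.47 to 4.05 CPM), tetur30g01860 (15.5 CPM against 13.02 to 13.3 CPM) and tetur46g00170 (11.5 CPM against 8.52 to 8.97 CPM). FORM replicate 3 was set apart in tetur04g03390 (1.64 CPM against 1.26 to 1.33 CPM), tetur11g05110 (0.887 CPM against 1.38 to 1.44 CPM) and tetur184g00040 (9.14 CPM against 10.56 to 10.8 CPM). DEF replicate 1 was the highest DEF library in tetur02g09850 (372 CPM against 305 to 315 CPM) and tetur03g05030 (328 CPM against 229 to 245 CPM). FORM replicate 1 was set apart in tetur06g01700 (102 CPM against 114 to 116 CPM) and tetur22g00480 (2.76 CPM against 1.77 to 1.85 CPM).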

How the results depend on the processing

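The number of differentially expressed genes depended on the threshold and the control. With DESeq2 and a normal prior on the fold change it was 187 (109 up, 78 down), with a test against an FC of 1.5 it was 26 (19 up, 7 down), and with the adjusted p alone 1136 (579 up, 557 down). With unsprayed mites as the control it was 556 (315 up, 241 down), of which 253 were among the 344, and with both controls pooled 548 (313 up, 235 down), of which 309 were among them. The causes were not tested. Leaving out each of the 8 libraries in turn gave 229 to 398 genes (123 to 255 up, 106 to 143 down). Limma-voom, DESeq2 without shrinkage, a robust dispersion, DESeq2 size factors and other filters gave 282 to 346 genes, the DEF and FORM libraries alone gave 428, and the share of upregulated genes moved by less than 10 percentage points with any scaling. For the 142 named genes over 21 alternatives, 2720 of 2965 log2 FC values kept their side of the thresholds. The call was lost in 243 and gained in 2. None reversed its direction where the gene was called in either fit. Reversals of genes called in neither fit were not counted. The test against an FC of 1.5 accounted for 110 of the losses. Unsprayed mites as the control accounted for 18, in tetur01g02650, tetur05g04460, tetur06g04980, tetur06g05110, tetur07g06460, tetur11g05100, tetur11g05520, tetur11g05770, tetur13g00990, tetur14g02070, tetur15g01980, tetur22g00460, tetur22g00510, tetur28g01950, tetur30g01750, tetur30g01860, tetur30g01880 and tetur72g00020. Of 133 named genes that were called, 109 kept the call whichever library was left out.

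Between DEF and PBO the number of genes was 77 with DESeq2, 68 with the replicate block and from 16 to 46 with a library left out. The share of differentially expressed genes with another within 1 tested gene was 18.3% (5.06% of all genes) and within 10 it was 49.1% (36.3%). Same-numbered DEF and FORM libraries deviated with correlations of 0.0015, 0.037, 0.041 and 0.208 for replicates 1 to 4, and not every library correlated best with its own number. The value of replicate 4 was the highest of all DEF and FORM pairs. On the second principal component (16.2% of the variance) DEF replicate 4 lay at −16.1 and FORM replicate 4 at −16.5. The other DEF libraries lay at 5.60, 20.9 and −1.89 and the other FORM libraries at 4.11, 0.462 and 3.50. An effect shared by the libraries of replicate 4 was not tested. With the number as a replicate block 372 genes were called (203 up, 169 down), 338 of them among the 344. Depth limits genes with few counts, whose rates are given with counting intervals.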
